A study of Mus musculus with 2 samples.

Results

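The 10 genes described here encode the core of transforming growth factor beta (TGF-beta) signaling at the cell surface and in the matrix: the ligands Tgfb1, Tgfb2 and Tgfb3, the receptors Tgfbr1, Tgfbr2 and Tgfbr3, and the latent TGF-beta binding proteins Ltbp1, Ltbp2, Ltbp3 and Ltbp4. They were chosen by symbol, and 11 of the 28006 measured features carried these symbols. Ltbp4 stood under 2 identifiers, of which ENSMUSG00000108715 had 0 UMIs in every class of cells. Reads that fitted both Ltbp4 models could have been dropped in counting, so the level of Ltbp4 is uncertain by an unknown amount.

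TGF-beta is secreted as a latent dimer that stays bound to its own cleaved propeptide. Latent TGF-beta binding proteins tie that complex to fibrillin and fibronectin fibers, and integrins or proteases release the active ligand. The ligand brings the type II receptor Tgfbr2 and the type I receptor Tgfbr1 together, and Tgfbr1 phosphorylates the transcription factors Smad2 and Smad3. Tgfbr3, also called betaglycan, presents the ligand, above all the product of Tgfb2. In bone, matrix holds a large store of latent TGF-beta that is laid down by osteoblasts, and the pathway is known to act on stromal progenitors, vessels and blood cells.

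Single-cell transcriptomes came from femurs of 2 mice at postnatal day 28, Mouse #1 and Mouse #2, with 1 library per mouse. Both carried the genotype Cxcl12(GFP/+); Cxcl12-iCreER; R26R(tdTomato/+), on a mixed background, and both had received tamoxifen at postnatal day 21. The GFP allele marks cells that transcribe Cxcl12, and the iCreER is a transgene under Cxcl12 control that switches on tdTomato for good in the cells it recombines and in their descendants. Cells were sorted as GFP+ by the cell type label, whereas a protocol field names a tdTomato+ sort. The paper states that the sort of these 2 mice used a GFP-high gate. Distal growth plates and proximal ends were removed and the bones were digested with enzymes, so cells of those regions were not sampled. There was no second group of animals, and all comparisons were between classes of cells taken from the same mice.

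Levels are given as counts per 1000000 UMIs of the class (CPM), first for Mouse #1 and then for Mouse #2. The libraries held 54940400 UMIs in Mouse #1 and 88790688 UMIs in Mouse #2, where a UMI is a tag that counts a captured transcript once. After filtering, 2750 and 4582 cells remained, with median depths of 12966.5 and 12190 UMIs, and 7 cell barcodes occurred in both libraries. Clustering without the 10 genes gave 20 clusters, and marker lists named 3 stromal classes (reticular-, preosteoblast- and periosteal-like cells), endothelial-like cells, and myeloid-, lymphoid- and erythroid-like blood cells. The stromal classes held 1800 and 3584 cells, the endothelial-like class 152 and 138, and the blood classes together 691 and 679. Transcripts of the eGFP reporter stood at 501 and 843 CPM in blood cells and at 10144 and 8965 CPM in stromal cells. The paper describes the blood cells of this sort as contamination, so shares of UMIs by class reflect the sort and not whole marrow. Between 6 and 8 of the 8 markers of each class were raised in that class in both mice. Myeloid markers summed to 6631 and 4579 CPM in endothelial-like cells, against 166765 and 224020 in myeloid-like cells. The pan-endothelial markers summed to at most 40.1 CPM in any stromal class.

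Counting error is covered by exact 95% Poisson intervals. A count of 3 UMIs was set as the floor, an approximate limit for a count of 0. It lies below the upper end of the exact interval for that count. Differences were tested with the quasi-likelihood test of edgeR on UMIs summed per mouse and class, with the mouse as the replicate (n = 2). A gene is called at an adjusted p under 0.05, with adjustment over all tested genes. The classes were made from the same cells that were then compared, and the p-values do not count that step. In sums of cells, fewer cells with a transcript and fewer transcripts per cell cannot be told apart without the shares of cells given beside some results. A log2 fold change is fitted after scaling between sums and so can differ from the ratio of the CPM values.

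**Figure D1:**
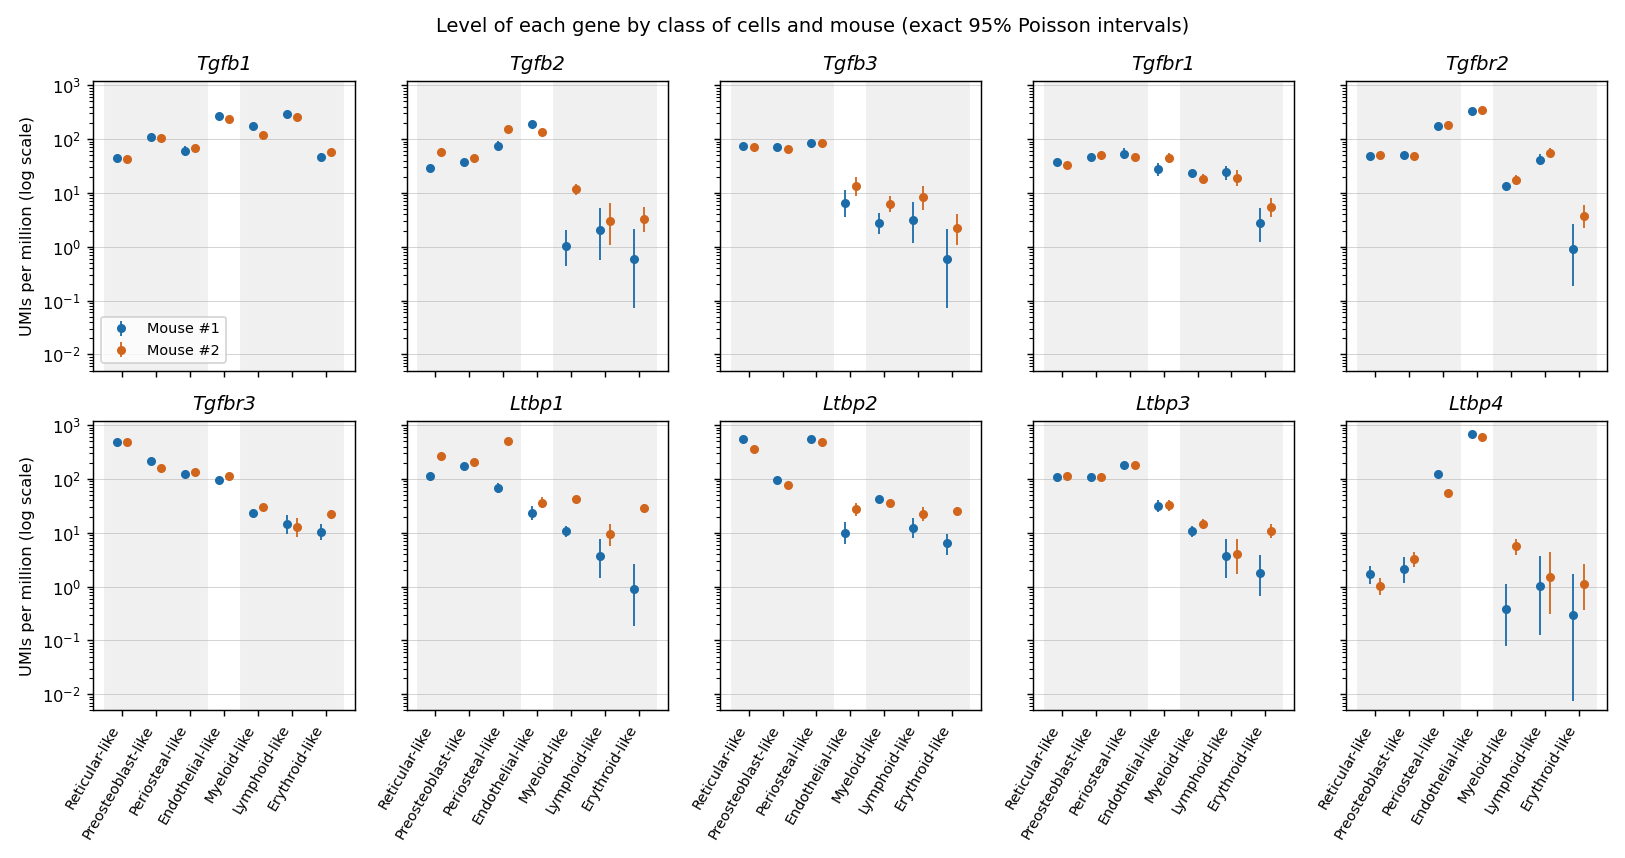
Level of each of the 10 genes (CPM, log axis) in the 7 named classes, with 1 point per mouse and exact 95% Poisson intervals; gray bands mark the stromal classes on the left and the blood classes on the right. Ltbp4 stood at 697 and 608 in endothelial-like cells and at 1.69 and 1.01 in reticular-like cells, while Tgfb1 was above 40 in every class.

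Tgfb1, the ligand isoform that blood cells and bone matrix are known for, was highest in lymphoid-like cells at 299 and 259 CPM and in endothelial-like cells at 264 and 232 CPM, and the counting intervals of these classes overlapped in both mice. Myeloid-like cells followed at 176 and 120 CPM, and preosteoblast-like cells stood at 111 and 105 CPM. The lowest values were those of periosteal-like cells at 61.2 and 67.5 CPM, erythroid-like cells at 46.9 and 57.1 CPM and reticular-like cells at 45.5 and 42.9 CPM. Lymphoid-, endothelial- and myeloid-like cells thus had the highest levels of Tgfb1, and within the stroma preosteoblast-like cells were above the others in both mice. After each cell was thinned to 2000 UMIs, 40.3% and 39.1% of lymphoid-like cells and 15.8% and 18.4% of preosteoblast-like cells had a Tgfb1 UMI.

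Within the blood, the level of Tgfb1 differed between clusters. It was 41.4 and 37.0 CPM in a cluster led by Retnlg and Mmp8, genes of maturing neutrophils, 157 and 113 CPM in a cluster led by Elane and Mpo, genes of granulocyte precursors, and 263 and 219 CPM in a cluster led by F13a1 and Ccr2, genes of monocytes. The highest values of all clusters were in an unnamed cluster of 21 and 21 cells led by C1qa, a complement gene of macrophages, at 467 and 366 CPM. These clusters are described without a test.

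Tgfb2, the isoform that depends most on Tgfbr3 for binding, was found in endothelial-like and periosteal-like cells. It stood at 189 and 134 CPM in endothelial-like cells and at 76.0 and 155 CPM in periosteal-like cells, which were not in the same order in both mice. Reticular-like cells had 29.3 and 57.1 CPM and preosteoblast-like cells had 37.0 and 44.5 CPM, again in opposite orders. Blood classes ranged from 0.602 to 11.9 CPM and lay below every stromal value. Stromal cells, which were more numerous, contributed 68.9% and 89.3% of the Tgfb2 UMIs of all named cells.

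Tgfb3 had the flattest levels among the stromal classes. It was 75.9 and 71.3 CPM in reticular-like cells, 72.3 and 65.2 CPM in preosteoblast-like cells and 83.8 and 83.0 CPM in periosteal-like cells. Endothelial-like cells had 6.58 and 13.4 CPM, and the blood classes ranged from 0.602 to 8.39 CPM. Of all Tgfb3 UMIs in named cells, 97.8% and 97.4% were in stromal cells, which were also the most numerous.

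Tgfbr1, the type I receptor kinase, was highest in periosteal-like cells at 53.5 and 46.2 CPM and in preosteoblast-like cells at 47.2 and 49.9 CPM, which were not separated beyond counting error. Reticular-like cells had 37.6 and 32.4 CPM, endothelial-like cells 27.8 and 44.7 CPM, and myeloid- and lymphoid-like cells between 18.4 and 24.0 CPM. Erythroid-like cells were lowest at 2.71 and 5.56 CPM.

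Tgfbr2, the type II receptor that binds the ligand, was highest in endothelial-like cells at 328 and 346 CPM. Periosteal-like cells came next at 178 and 186 CPM, below endothelial-like cells and above all other classes in both mice. Reticular-like cells had 48.7 and 50.5 CPM, preosteoblast-like cells 50.1 and 49.5 CPM, and lymphoid-like cells 41.7 and 56.2 CPM, and these neighbors did not differ beyond counting error. Myeloid-like cells had 13.2 and 17.5 CPM and erythroid-like cells 0.903 and 3.78 CPM. In the C1qa-led cluster the receptors stood above the myeloid-like class, at 213 and 164 CPM for Tgfbr2 and at 115 and 136 CPM for Tgfbr1.

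Tgfbr3 had a different order of classes and was highest in reticular-like cells, at 495 and 486 CPM. It was 220 and 158 CPM in preosteoblast-like cells, 122 and 135 CPM in periosteal-like cells and 94.6 and 115 CPM in endothelial-like cells. The 3 stromal classes kept this order in both mice with counting intervals that did not touch, although the difference between preosteoblast- and periosteal-like cells was not called (log2 0.43 ± 0.16, edgeR adjusted p = 0.1). Thinned to 2000 UMIs, 59.9% and 59.3% of reticular-like cells had a Tgfbr3 UMI, against 2.46% and 3.25% of blood cells, which served as the background. In the unnamed cluster led by Bglap and Ifitm5, genes of mature osteoblasts, Tgfbr3 was 7.80 and 10.2 CPM in 13 and 61 cells.

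Of the 4 binding proteins, Ltbp1, Ltbp2 and Ltbp3 were all highest in stromal classes, while Ltbp4 was highest in endothelial-like cells. Within the stroma, the levels of Ltbp1, Ltbp2 and Ltbp3 by class were not alike. Ltbp1, which binds the latent complex of TGF-beta, was 113 and 272 CPM in reticular-like cells, 176 and 207 CPM in preosteoblast-like cells and 68.3 and 516 CPM in periosteal-like cells. The order of the stromal classes was therefore not the same in the 2 mice. Endothelial-like cells had 23.3 and 36.5 CPM.

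Ltbp2, a member of the family that does not bind latent TGF-beta and is known as a component of microfibrils, was high in reticular-like cells at 553 and 359 CPM and in periosteal-like cells at 560 and 479 CPM. It was 95.9 and 75.7 CPM in preosteoblast-like cells, and in the Bglap-led cluster it was 0 and 3.65 CPM. After thinning, 55.1% and 43.5% of reticular-like, 65.8% and 53.2% of periosteal-like and 13.6% and 12.7% of preosteoblast-like cells had an Ltbp2 UMI. Blood cells had 3.47% and 3.25%.

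Ltbp3, which binds latent TGF-beta and is known for its part in bone and tooth growth, was 107 and 113 CPM in reticular-like cells and 109 and 109 CPM in preosteoblast-like cells. It was 182 and 181 CPM in periosteal-like cells and 31.9 and 32.4 CPM in endothelial-like cells. Periosteal-like cells were above the other classes in both mice.

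Ltbp4, a binding protein that also takes part in the assembly of elastic fibers, had the widest range. It was 697 and 608 CPM in endothelial-like cells and 122 and 54.0 CPM in periosteal-like cells. Reticular-like cells had 1.69 and 1.01 CPM, preosteoblast-like cells 2.11 and 3.22 CPM, and blood classes between 0.301 and 5.60 CPM. Endothelial-like cells thus held 86.1% and 79.2% of the Ltbp4 UMIs of all named cells. In periosteal-like cells the pan-endothelial markers summed to 40.1 and 19.7 CPM, against 6993 and 6414 CPM in endothelial-like cells. The part of endothelial transcripts in the Ltbp4 level of periosteal-like cells was not tested.

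**Figure D2:**
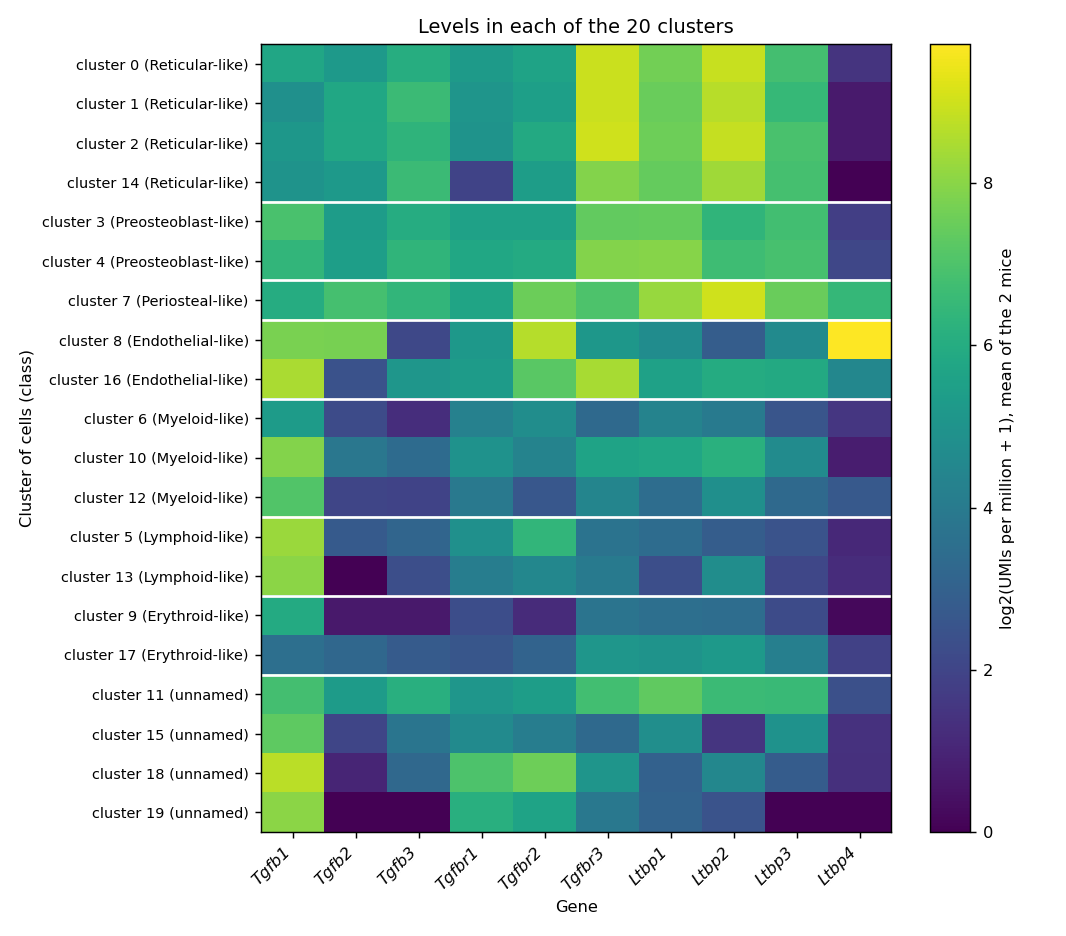
Heat map of the 10 genes (columns) in the 20 clusters (rows, grouped by class; white lines part the classes), colored by log2 of the mean CPM of the 2 mice plus 1. Ltbp4 is brightest in cluster 8 of the endothelial-like cells at 904 and 772 CPM, and Tgfbr3 and Ltbp2 are bright in the reticular-like clusters.

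The gene bodies of Tgfb2, Tgfbr2 and Ltbp4, which were all higher in the Gja4-led than in the Stab2-led cluster of endothelial-like cells (described with the endothelial values), lie on separate chromosomes of GRCm38. Tgfb2 spans chr1:186622792-186705989, Tgfbr2 spans chr9:116084293-116175360 and Ltbp4 spans chr7:27305136-27337692, all on the minus strand. Because these 3 genes, chosen after their values were seen, were high in the same endothelial-like cluster, the bases just upstream of their start sites are shown to let them be compared. The sequences are from RefSeq (GRCm38.p6) at chr1:186705990-186706239, chr9:116175364-116175613 and chr7:27337693-27337862, on the minus strand and written 5′ to 3′. Capitals mark a match on either strand to a motif. The motifs were a TATA box with the letters TATAAA, a GC box with the letters GGGCGG and a CCAAT box. They also included an E-box with the letters CACGTG, a SMAD element with the letters CAGAC and an ETS site with the letters CCGGAA, and no base belonged to more than 1 match.
Tgfb2: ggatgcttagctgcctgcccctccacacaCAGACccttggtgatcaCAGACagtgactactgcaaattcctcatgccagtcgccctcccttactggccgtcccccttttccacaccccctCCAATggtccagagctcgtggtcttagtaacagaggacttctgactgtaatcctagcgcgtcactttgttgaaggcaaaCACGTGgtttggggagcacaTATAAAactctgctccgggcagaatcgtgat
Tgfbr2: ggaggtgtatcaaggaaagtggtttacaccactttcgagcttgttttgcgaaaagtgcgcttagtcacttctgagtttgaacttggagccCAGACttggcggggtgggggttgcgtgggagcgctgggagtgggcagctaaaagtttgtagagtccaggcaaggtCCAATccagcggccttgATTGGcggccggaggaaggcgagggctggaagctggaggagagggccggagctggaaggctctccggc
Ltbp4: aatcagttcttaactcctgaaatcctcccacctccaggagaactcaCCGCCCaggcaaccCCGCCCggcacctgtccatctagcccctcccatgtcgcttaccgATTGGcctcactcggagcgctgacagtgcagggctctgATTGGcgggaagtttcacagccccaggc
The Tgfb2 stretch held a TATA box, present in 12.4% of 32851 windows of 250 bases searched, an E-box, present in 6.02%, a CCAAT box, present in 33.8%, and 2 SMAD elements, present in 42.2%. The Tgfbr2 stretch held 2 CCAAT boxes and 1 SMAD element, and neither a TATA box nor a GC box. The Ltbp4 stretch of 170 bases held 2 GC boxes, present in 19.5% of windows of that length, and 2 CCAAT boxes, present in 23.3%. Those windows were the first 170 of the 250 bases upstream of each RefSeq start, so the bases nearest these starts were left out. The Ltbp4 stretch was cut the same way, at the end of its gene body. None of the 3 held the ETS letters searched. The CCAAT box was the motif that all 3 had, and such matches are common and describe letters only.

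Reticular-like cells were compared with preosteoblast-like cells to ask how these major Cxcl12-GFP+ stromal classes differ. Of the 10 genes, 4 were called. Tgfbr3 and Ltbp2 were higher in reticular-like cells, and Tgfb1 and Tgfbr1 were lower. Over all 12869 tested genes, 13.5% were called higher and 13.3% lower. Ltbp2 was 5.50-fold higher (log2 2.46 ± 0.22 SE, adjusted p = 3.3e-04), and Tgfbr3 2.69-fold higher (log2 1.43 ± 0.16, adjusted p = 7.8e-04). Tgfb1 was 2.36-fold lower (log2 -1.24 ± 0.099, adjusted p = 2.1e-04). Tgfbr1 was 1.35-fold lower (log2 -0.43 ± 0.12, adjusted p = 0.037). The call of Tgfbr1 was lost with DESeq2 (adjusted p = 0.063) and when the Bglap-led cluster counted as preosteoblast-like (adjusted p = 0.053). The other 6 genes were not called, with adjusted p from 0.2 for Ltbp4 to 0.98 for Ltbp1.

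Against periosteal-like cells, reticular-like cells differed in 7 of the 10 genes, 1 higher and 6 lower, where 9.93% of all tested genes were called higher and 12.6% lower. Tgfbr3 was again the gene on the reticular side, 3.63-fold higher (log2 1.86 ± 0.17, adjusted p = 3.0e-04). Ltbp4 was 68.3-fold lower (log2 -6.09 ± 0.45, adjusted p = 1.3e-04) and Tgfbr2 3.85-fold lower (log2 -1.94 ± 0.098, adjusted p = 2.7e-05). Tgfb2 (log2 -1.52 ± 0.38), Ltbp3 (log2 -0.79 ± 0.098), Tgfb1 (log2 -0.62 ± 0.11) and Tgfbr1 (log2 -0.56 ± 0.14) were lower as well. Ltbp1, Ltbp2 and Tgfb3 were not called. For Ltbp1 the mice went opposite ways, with a log2 ratio of 0.72 in Mouse #1 and -0.93 in Mouse #2.

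Preosteoblast-like cells also differed from periosteal-like cells in 7 of the 10 genes, with 9.34% of all tested genes called higher and 13.0% lower. Tgfb1 was higher in preosteoblast-like cells (log2 0.62 ± 0.11, adjusted p = 0.0063). Ltbp4 (log2 -5.01 ± 0.45), Ltbp2 (log2 -2.72 ± 0.22), Tgfbr2 (log2 -1.99 ± 0.10), Tgfb2 (log2 -1.66 ± 0.39), Ltbp3 (log2 -0.85 ± 0.099) and Tgfb3 (log2 -0.40 ± 0.11) were lower. Tgfbr1, Tgfbr3 and Ltbp1 were not called. The call of Tgfb3 was lost without scaling beyond total UMIs (adjusted p = 0.098) and in a fit of the pair alone (adjusted p = 0.057). The 2 periosteal comparisons share the periosteal-like sums, so their calls are not independent. Periosteal-like cells came from 1 cluster of 79 and 238 cells, in which preosteoblast markers summed to 14129 and 13857 CPM, close to the 14414 and 16807 CPM of preosteoblast-like cells.

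**Figure D3:**
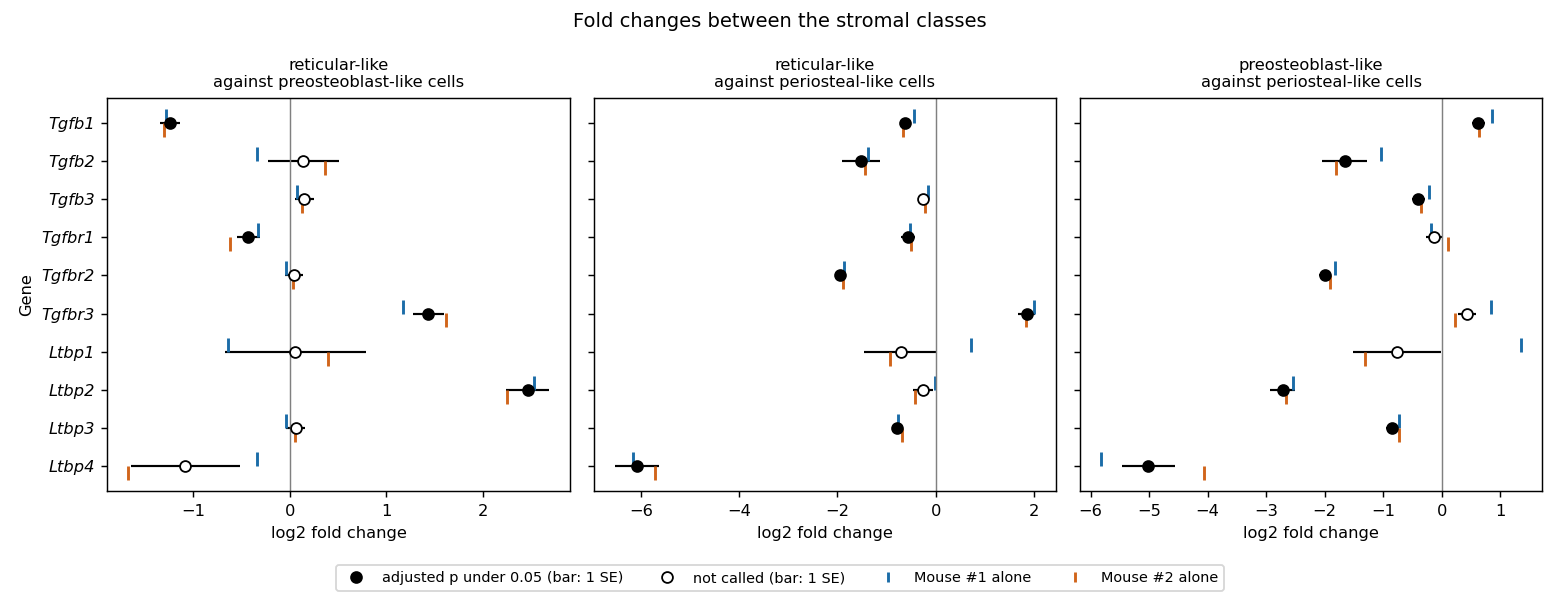
Log2 fold changes of the 10 genes (rows) between the 3 stromal classes, in 3 panels with separate axes. Circles are the fits with bars of 1 SE, filled where the adjusted p is under 0.05, and colored ticks are the ratios of Mouse #1 and Mouse #2 alone, which lie on opposite sides of 0 for Ltbp1 in all 3 panels.

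Stromal cells as a whole were compared with endothelial-like cells, and 9 of the 10 genes were called. Over all 14093 tested genes, 22.8% were called higher and 22.0% lower in stromal cells. Stromal cells had more Ltbp2 (log2 4.31 ± 0.40, adjusted p = 2.7e-04), Tgfb3 (log2 2.94 ± 0.41, adjusted p = 0.0016), Ltbp1 (log2 2.81 ± 0.76, adjusted p = 0.023), Tgfbr3 (log2 1.93 ± 0.18, adjusted p = 2.8e-04) and Ltbp3 (log2 1.90 ± 0.23, adjusted p = 7.9e-04). Endothelial-like cells had more Ltbp4 (log2 -6.47 ± 0.56, adjusted p = 2.1e-04), Tgfbr2 (log2 -2.46 ± 0.16, adjusted p = 6.7e-05), Tgfb1 (log2 -1.88 ± 0.14, adjusted p = 1.2e-04) and Tgfb2 (log2 -1.69 ± 0.56, adjusted p = 0.049). The call of Tgfb2 was lost with DESeq2 (adjusted p = 0.082). Tgfbr1 was not called (log2 0.21 ± 0.23, adjusted p = 0.5), and its ratio was above 0 in Mouse #1 and below 0 in Mouse #2.

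Against blood cells, stromal cells differed in 9 of the 10 genes, 8 higher and 1 lower, where 38.6% of all tested genes were called higher and 35.3% lower. The gene that was lower was Tgfb1 (log2 -1.50 ± 0.14, adjusted p = 9.4e-05), at 64.8 and 63.0 CPM in stromal cells and 161 and 120 CPM in blood cells. Tgfb3 had the largest fitted difference, 15.3-fold higher (log2 3.93 ± 0.36, adjusted p = 8.8e-05), followed by Tgfbr3 at 13.7-fold (log2 3.77 ± 0.19, adjusted p = 7.6e-06). Ltbp2, Ltbp3, Tgfb2 and Ltbp1 were between 7.88- and 9.41-fold higher, Tgfbr2 2.73-fold and Tgfbr1 1.94-fold. Ltbp4 was not called (log2 1.52 ± 0.61, adjusted p = 0.058). It was called when the stress-led reticular-like cluster was left out (adjusted p = 0.038), with total UMIs as the only scaling (adjusted p = 0.022) and without the filter on low counts (adjusted p = 0.012).

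Endothelial-like cells differed from blood cells in 7 of the 10 genes, all higher, where 28.0% of all tested genes were called higher and 31.2% lower. Ltbp4 (log2 7.98 ± 0.64), Tgfb2 (log2 4.80 ± 0.70) and Tgfbr2 (log2 3.91 ± 0.18) had the largest differences, with adjusted p of 7.7e-05, 0.0011 and 1.1e-05. Tgfbr3 (log2 1.84 ± 0.19), Ltbp3 (log2 1.32 ± 0.25), Tgfbr1 (log2 0.75 ± 0.24) and Tgfb1 (log2 0.39 ± 0.14, adjusted p = 0.049) followed. The call of Tgfb1 was lost in 5 of the alternatives, with adjusted p from 0.051 to 0.08, and that of Tgfbr1 in a fit of the pair alone (adjusted p = 0.05). The comparisons of the 3 compartments share their sums, so they do not stand as separate evidence.

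Scaling moved the level that counts as no change. With total UMIs as the only scaling, the median log2 fold change of all genes moved by 0.36 for stromal against blood cells, by 0.43 for endothelial-like against blood cells and by 0.12 for preosteoblast-like against periosteal-like cells. The share of higher genes among those called moved from 52.2% to 64.5%, from 47.3% to 65.0% and from 41.8% to 56.2%. No called member changed its direction.

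**Figure D4:**
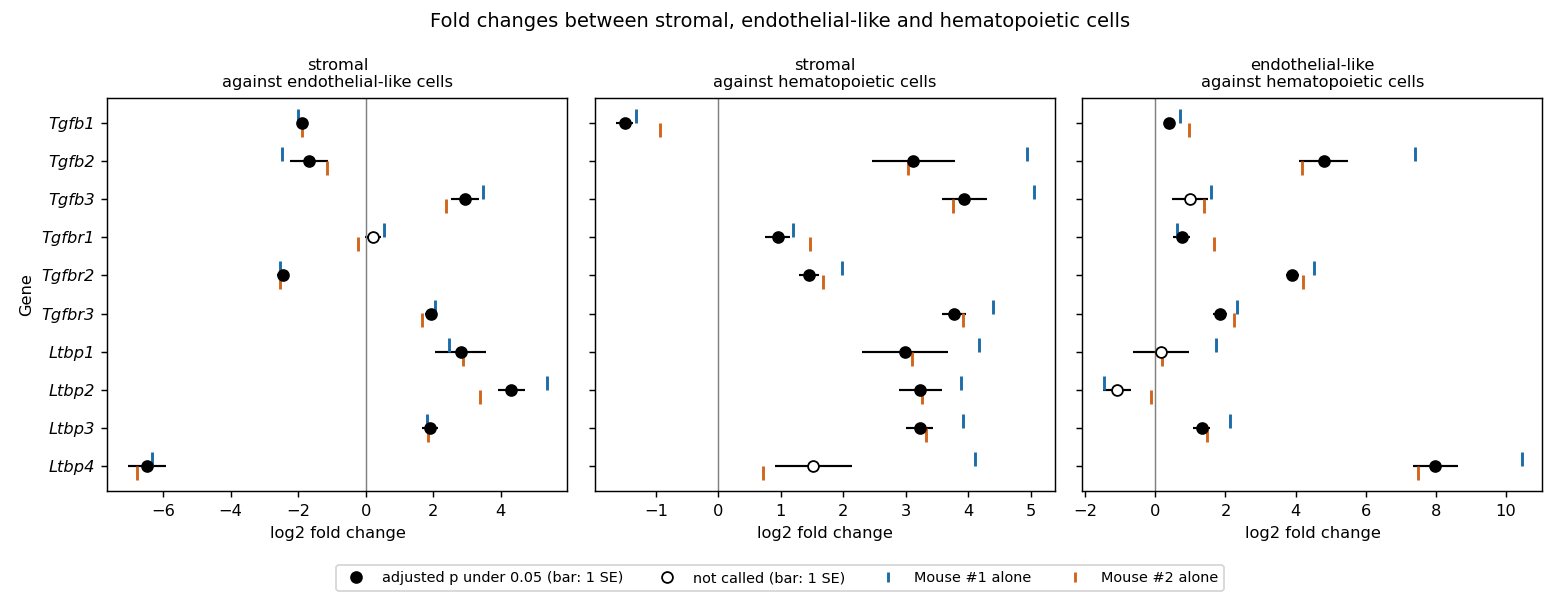
Log2 fold changes of the 10 genes (rows) between stromal, endothelial-like and blood cells, in 3 panels with separate axes; circles with bars of 1 SE are the fits, filled where the adjusted p is under 0.05, and colored ticks are the ratios in each mouse alone. Tgfb1 lies below 0 in both stromal panels, and Ltbp4 is at -6.47 in the first panel and at 7.98 in the last.

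The endothelial-like class was made of 2 clusters with opposite profiles of these genes. The larger, of 124 and 110 cells, was led by Ly6c1, Gja4 and Sema3g, which mark arterial endothelium, and Ltbp4 was itself among its top 10 genes. The smaller, of 28 and 28 cells, was led by Gpm6a, Selp, Stab2 and Flt4, of which Stab2 and Flt4 mark sinusoidal endothelium of marrow. In 8 of the 10 genes the counting intervals of the clusters did not overlap in either mouse. The share of all genes with such a separation was not computed, so this count does not set the 10 genes apart. Each cluster was 1 sum per mouse, and the values are a description without a test.

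Ltbp4 was 904 and 772 CPM in the Gja4-led cluster against 15.2 and 28.0 CPM in the Stab2-led cluster. Tgfb2 was 245 and 170 CPM against 4.34 and 4.66 CPM, from 2 UMIs in each mouse, so that the ratios of 56.4 (95% counting interval 15.5 to 468) and 36.4 (9.99 to 303) are imprecise. Tgfbr2 was present in both, at 390 and 395 CPM against 124 and 173 CPM. These 3 genes were thus higher in the Gja4-led cluster in both mice.

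Tgfbr3 had the reverse pattern, at 27.0 and 40.8 CPM in the Gja4-led cluster and 317 and 378 CPM in the Stab2-led cluster. Tgfb1 was 214 and 215 CPM against 425 and 289 CPM. Ltbp3 was 23.7 and 25.0 CPM against 58.5 and 58.3 CPM. Tgfb3 and Ltbp2 were also higher in the Stab2-led cluster, at 19.5 and 46.6 CPM and at 32.5 and 90.9 CPM. Tgfbr1 did not differ beyond counting error, and Ltbp1 went opposite ways in the mice.

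Stromal and myeloid transcripts were unequal between these clusters. The 8 reticular markers summed to 468 and 602 CPM in the Gja4-led cluster and to 1850 and 3435 CPM in the Stab2-led cluster, with none at 0, against 17310 and 14934 CPM in reticular-like cells. The 8 preosteoblast markers summed to 191 and 717 CPM in the Gja4-led cluster and to 4196 and 3864 CPM in the Stab2-led cluster, against 14414 and 16807 CPM in preosteoblast-like cells. Myeloid markers summed to 8583 and 5837 CPM in the Gja4-led cluster, with Csf1r at 0, and to 215 and 128 CPM in the Stab2-led cluster, with 3 of 8 at 0. The part of these transcripts in the differences was not tested.

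**Figure D5:**
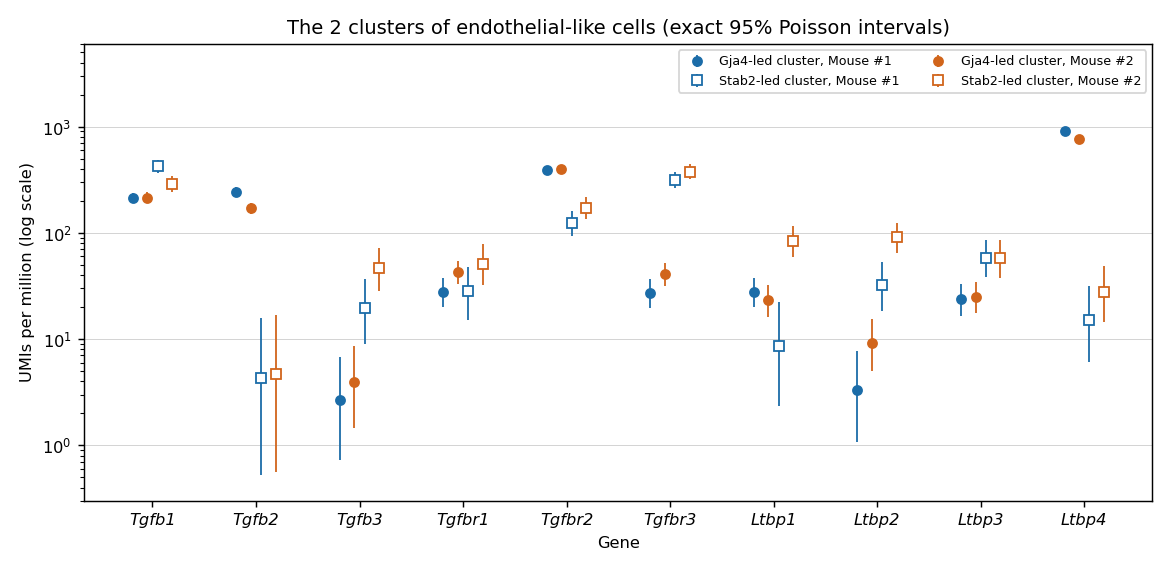
Level of the 10 genes (CPM, log axis) in the Gja4-led cluster (filled circles) and the Stab2-led cluster (open squares) of endothelial-like cells, by mouse, with exact 95% Poisson intervals. Ltbp4, Tgfb2 and Tgfbr2 are higher in the Gja4-led cluster, and Tgfb1, Tgfb3, Tgfbr3, Ltbp2 and Ltbp3 in the Stab2-led cluster.

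In blood cells, 9 of the 10 genes lay below their level in free RNA, which was read from barcodes of 1 to 100 UMIs. Their blood level was between 1.89% and 69.6% of the free level, the largest share being that of Tgfbr1 in Mouse #1. The share of all genes that lie below their free level in blood cells was not computed, so the count does not set these genes apart. Tgfb1 was the exception, at 161 and 120 CPM in blood cells against 110 and 104 CPM in free RNA. Lymphoid- and myeloid-like cells lay above that free level, while erythroid-like cells lay below it, at 42.6% and 54.9%, as did the Retnlg-led cluster of myeloid-like cells at 41.4 and 37.0 CPM. Reticular-like cells, at 45.5 and 42.9 CPM of Tgfb1, were also below the free level. Lymphoid-like cells had Tgfbr2 at 41.7 and 56.2 CPM, close to the free level of 43.7 and 47.1 CPM, and in a cluster led by Ms4a1, a gene of B cells, Tgfbr2 was 70.2 and 97.9 CPM. When cells with the highest doublet scores were removed, the mean level in myeloid-like cells went from 26.5 to 10.8 CPM for Tgfbr3 and from 38.8 to 15.6 CPM for Ltbp2.

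The mice differed from each other in a few of these genes far more than in most genes. Among 6096 genes with a mean of at least 20 CPM in reticular-like cells, Ltbp1 had the difference of rank 9, with a ratio of 2.41 in favor of Mouse #2. Tgfb2 had rank 30, with a ratio of 1.95 in favor of Mouse #2, and Ltbp2 rank 113, with a ratio of 1.54 in favor of Mouse #1. The other 6 members above that level differed by ratios of 1.02 to 1.16. In periosteal-like cells Ltbp1 had rank 5 of 5952 genes, with a ratio of 7.56 in favor of Mouse #2, and Ltbp4 rank 55, with a ratio of 2.27 in favor of Mouse #1. In preosteoblast-like cells the ratio of Ltbp1 was 1.18, so the difference between the mice was unequal among the stromal classes. Ltbp1 in free RNA differed the same way, at 96.9 and 214 CPM. With 1 library per mouse, a difference between animals and a difference between libraries cannot be told apart.

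The 4 clusters of reticular-like cells are described without a test. Over the 3 larger clusters Tgfbr3 ranged from 477 to 544 CPM and Ltbp3 from 81.0 to 125 CPM across both mice. Tgfb1 was 52.5 and 52.1 CPM in the cluster led by Tnfsf11 and Ccl2, and 29.7 and 26.9 CPM in the cluster led by heat shock genes. Tgfb3 was 64.9 and 64.9 CPM in the former and 106 and 88.3 CPM in the latter. The small cluster led by Cxcl9, of 46 and 43 cells, had Tgfbr3 at 265 and 216 CPM and Tgfbr1 at 0 and 5.69 CPM. In the preosteoblast-like class, the cluster led by Spp1 and Postn had more Tgfb1 in both mice than the cluster led by Kcnk2 and Limch1 (135 and 109 CPM against 73.1 and 92.8 CPM) and less Tgfbr3 (180 and 147 CPM against 284 and 195 CPM).

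Reticular-like cells with tdTomato above a cut set on blood cells (tdTomato-positive) were compared with the other reticular-like cells (tdTomato-negative). The label marks Cxcl12-iCreER activity in the week before harvest or in a parent cell. A lower cut raised the number of tdTomato-positive cells from 503 to 563 in Mouse #1 and from 986 to 1317 in Mouse #2. The tdTomato-negative cells of the main cut thus included cells with some tdTomato transcripts. Whether those cells had recombined was not tested. None of the 10 genes was called, nor was any of the 12249 tested genes (0%) by edgeR, of which 575 had an unadjusted p under 0.05, while DESeq2 called 13 genes. The tdTomato transcript that set the cut was not excluded from the edgeR fit, and it was not called there either. The absence of calls without the block therefore cannot show that the 10 genes were equal. With the mouse as a block, 608 genes (4.96%) were called, and 1 of the 10 genes was among them. That gene was Ltbp2 (log2 0.33, adjusted p = 1.1e-04), at 632 CPM in tdTomato-positive and 501 CPM in tdTomato-negative cells of Mouse #1 and at 400 and 332 CPM in those of Mouse #2. Both mice had more Ltbp2 in tdTomato-positive cells. The other 9 genes had log2 fold changes between -0.66 and 0.10 without the block.

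Genes that act around the ligand were counted from 4 lists, to be read beside the shares of all tested genes. Those shares, called higher and lower in turn, were 13.5% and 13.3% between reticular- and preosteoblast-like cells. They were 9.93% and 12.6% for reticular-like and 9.34% and 13.0% for preosteoblast-like against periosteal-like cells. Of 19 genes of activation and matrix storage, 17 were tested between reticular- and preosteoblast-like cells, of which 1 was called higher and 10 lower on the reticular side, with a median log2 fold change of -0.63, against -0.015 over all genes. The lower genes included the protease Mmp9 (log2 -4.21), Fn1, which encodes fibronectin (log2 -3.87), and Itgb8, an integrin subunit that activates latent TGF-beta (log2 -3.81). Itgb8 was scarce on both sides, with preosteoblast-like levels of only 2.25 CPM in Mouse #1 and 2.94 CPM in Mouse #2. Its reticular-like levels, 0.241 and 0.130 CPM, lay near the floors of 0.181 and 0.0977 CPM, which leaves the size of this fold change imprecise. The gene that was higher was Lrrc32, which holds latent TGF-beta at the cell surface (log2 1.55). Against periosteal-like cells 2 were higher and 8 lower in reticular-like cells, with a median of -1.17 against 0.022 over all genes.

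The same list set stromal cells apart from the other compartments. Of 18 tested genes, 11 were higher and 2 lower in stromal than in endothelial-like cells, with a median of 2.27 against 0.098 over all genes. The lower genes were Nrros, known to hold latent TGF-beta on myeloid cells (log2 -5.87), and Lrrc32 (log2 -4.90), and the higher genes included fibrillin 2, Fbn2 (log2 4.26). Against blood cells 13 were higher and 2 lower in stromal cells, with a median of 2.61 against 0.072. Endothelial-like cells had 6 higher and 3 lower than blood cells, with a median of 0.42 against -0.10. Over all tested genes, the shares called higher and lower were 22.8% and 22.0% for stromal against endothelial-like cells. They were 38.6% and 35.3% for stromal and 28.0% and 31.2% for endothelial-like against blood cells. In endothelial-like cells Lrrc32 was 346 and 333 CPM, against at most 76.3 CPM in the other classes.

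Co-receptors and binding proteins of the ligand numbered 10. Between reticular- and preosteoblast-like cells 4 were higher, among them Nrp1 (log2 1.65) and Vasn (log2 0.74), and 4 were lower, among them Cd109 (log2 -3.50), Fmod (log2 -2.36) and Dcn (log2 -1.25). The median was 0.29, against -0.015 over all genes. Between stromal and endothelial-like cells all 10 were called, 4 higher and 6 lower, with a median of -0.69 against 0.098 over all genes. Of all tested genes, 22.8% were called higher and 22.0% lower there. The 4 higher were Vasn and the proteoglycans Fmod, Dcn and Bgn, and those lower included Lrg1 (log2 -8.42), Cd109 (log2 -4.65) and Acvrl1, a type I receptor of endothelium (log2 -2.97). Against blood cells 8 were higher and 1 lower in stromal cells, with a median of 3.05 against 0.072 over all genes. In endothelial-like cells 6 were higher and 0 lower than in blood cells, with a median of 2.39 against -0.10. Of all tested genes, 38.6% were called higher and 35.3% lower in stromal cells, and 28.0% and 31.2% in endothelial-like cells.

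Smad proteins and their regulators, 13 genes, had few calls between reticular- and preosteoblast-like cells and more between reticular- and periosteal-like cells. Preosteoblast-like against periosteal-like cells had 0 higher and 2 lower, with a median of -0.086. Between reticular- and preosteoblast-like cells 0 were higher and 2 lower, Pmepa1 (log2 -0.70) and Map3k7 (log2 -0.35), with a median of 0.056. Of all tested genes, 13.5% were called higher and 13.3% lower there. Between reticular- and periosteal-like cells 3 were higher, Smad7 (log2 0.84), Smurf2 (log2 0.57) and Smad2 (log2 0.52), and 3 were lower, Pmepa1 (log2 -1.70), Skil (log2 -0.89) and Smad3 (log2 -0.87), with a median of -0.17. Between stromal and endothelial-like cells 2 were higher and 3 lower, with a median of -0.034. Against blood cells 12 of 13 were higher in stromal cells, with a median of 1.36, and 11 of 13 were higher in endothelial-like cells, with a median of 2.11. The shares of all tested genes called higher were 38.6% and 28.0%, with medians of 0.072 and -0.10.

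Genes known to respond to TGF-beta, 13 in number, were split between the stromal classes. Between reticular- and preosteoblast-like cells 6 were higher, among them Junb (log2 1.33) and Tsc22d1 (log2 1.29), and 2 were lower, Timp1 (log2 -2.98) and Cdkn2b (log2 -2.23), with a median of 0.48. Junb is also an immediate early gene of cell stress, and the stress genes Hspa1a and Hspa1b were among the top genes of 1 reticular-like cluster; the part of stress in these counts was not tested. Preosteoblast-like against periosteal-like cells had 3 higher and 6 lower, with a median of -0.55. Between stromal and endothelial-like cells 5 were higher, led by Ctgf (log2 3.77) and Snai2 (log2 3.64), and 3 lower, with a median of 0.77. Against blood cells 12 of 13 were higher in stromal cells, with a median of 2.71, and 8 were higher and 1 lower in endothelial-like than in blood cells, with a median of 1.96. The shares of all tested genes called higher were again 38.6% and 28.0%. In tdTomato-positive against tdTomato-negative cells none of the tested genes of the 4 lists was called. With the mouse as a block, 1 was higher and 4 lower of 16 genes of activation and storage, 1 higher and 2 lower of 9 co-receptors and binding proteins, 0 of 13 Smad proteins and regulators, and 3 higher and 1 lower of 13 response genes. Of all 12249 tested genes, 4.96% were called with the block.

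Across the 14 sums of 7 classes and 2 mice, the genes with the most similar levels were found for the members by Pearson's r of log2(CPM + 1) among 10796 genes. The closest to Ltbp4 was Fbln2, an elastic fiber protein (r = 0.99), followed by Ly6c1. Plk2 (r = 0.99) and Thbd, the thrombin receptor of endothelium, were closest to Tgfbr2. Hspa5 (r = 0.99), Mylk and Foxc1, a transcription factor of reticular cells, were closest to Tgfbr3. Egfr (r = 0.98) was closest to Ltbp2, Fbn1, which encodes fibrillin 1 (r = 0.95), to Ltbp1, and Fkbp14 (r = 0.99) to Ltbp3. Rab34 (r = 0.99) was closest to Tgfb3, Gorasp2 (r = 0.98) to Tgfbr1 and Dgkz (r = 0.98) to Tgfb1. The sums share libraries and classes, so these correlations describe and carry no test.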

How the data were processed

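The authors deposited raw UMI counts per gene and barcode for 2 libraries (10x 3′ chemistry), made with Cell Ranger 3.0.0 per the file headers on mm10 with reporter sequences added. The annotation release is not given in the sources used here. Counts of 3′ tags carry no length, so levels are not compared between genes. The members and lists were chosen with earlier results of these data known.

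Barcodes with fewer than 1000 genes, or with more than 15% of UMIs from mitochondrial genes, were left out. They were clustered with scanpy 1.11.5 (2000 variable genes, 30 components, 15 neighbors, Leiden resolution 0.5) without the members, the 4 pathway lists, the reporters and the mitochondrial genes. A cluster was named where at least 3 markers of a class were raised 1.5-fold in 10% of its cells or more. The rule that left the Bglap- and Ifitm5-led cluster unnamed was set after its genes were seen. Scrublet called 2 and 3 cells and had not worked, so no doublets were removed, and the 60 and 168 cells of highest score were left out as an alternative. tdTomato-positive cells lay above the 99th percentile of blood cells.

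UMIs were summed per mouse and class and tested with edgeR 4.0.16 (TMM, quasi-likelihood, Benjamini-Hochberg), with DESeq2 1.42.0 as an alternative. The tests were tested on simulated data. Samples are 2 mice, so p-values rest on the spread between 2 animals. Sums with the same number come from the same animal. The deviations of the sums correlated between paired classes at r = 0.278, 0.165, 0.136, 0.119, 0.240, 0.090 and 0.501 in the order in which the comparisons are reported. Intervals and floors cover counting error only. Named genes were all members, for each list the 3 called genes with the largest change in each direction, and the closest genes by level. Some genes that this rule names are not reported here. Bgn was named after its values were seen, to complete a count of 4. Exons of Tgfbr3 overlap those of Gm43422 on the same strand in GENCODE vM21, and reads there could be split or dropped.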

Additional observations from a re-analysis of the deposited data

How the results depend on the processing

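Each of the 7 comparisons was refitted with stricter cells, another clustering resolution, high Scrublet scores removed, stress-led clusters left out, RLE or total-UMI scaling, no filter on low counts, DESeq2 and the mouse as a replicate block. The 6 comparisons between classes were also refitted on the pair alone and with the Bglap-led cluster counted as preosteoblast-like, an alternative chosen after seeing the data. No member changed direction in a called result. With the pairing by mouse as a replicate block, 1 member was called between tdTomato-positive and tdTomato-negative cells and 608 genes in all, against 0 without it. There DESeq2 called 13 genes, no filter 84, and a lower and a higher tdTomato threshold 1 each. The block changed no other call of a member, but called genes of 3 pathway lists there. Without the filter, Ltbp4 (reticular- against preosteoblast-like, adjusted p = 5.8e-04), Ltbp1 (4.1e-05 and 2.6e-06 against periosteal-like cells, reticular- and preosteoblast-like in turn) and Tgfbr3 (preosteoblast- against periosteal-like, 0.02) were called as well. Between endothelial-like and blood cells Ltbp2 was called with stricter cells and DESeq2 (both 0.043) and without the filter (0.018), and Tgfb3 with high Scrublet scores removed (0.022) and total-UMI scaling (0.043). The causes were not tested. Leaving out either mouse leaves 1 sum a class and a ratio without a test. Depth limits the small clusters, such as the Stab2-led cluster, where Tgfb2 rests on 2 UMIs a mouse, and the Cxcl9-led cluster, where Tgfbr1 rests on 0 and 1 UMIs.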
